A study of Mus musculus with 477 samples.

Results

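*Igf2* and a set of related growth genes, most of them known for their activity in the fetus, were followed through 4 *Brca1*-deficient mammary tumors and the luminal cells of 7 mice. The set holds 9 of the 21004 genes in the count table. They are the ligand gene *Igf2*, its imprinted neighbour *H19*, the receptor gene *Igf2r*, the RNA-binding protein genes *Igf2bp1*, *Igf2bp2*, *Igf2bp3* and *Lin28b*, and the chromatin protein genes *Hmga1* and *Hmga2*. These genes were picked with their levels in these same tumor and luminal cells known. Their tumor levels are therefore given as a description without a test, and tests are kept for pregnancy and for other genes. *Igf2r* was not low in adult luminal cells: the 7 luminal mice had 72.4 to 174 CPM (reads per 1000000).

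Each cell was caught and its mRNA copied along the whole transcript on a Fluidigm C1 microfluidic chip. The data cover 477 cells, 165 from tumors and 312 from luminal epithelium. All mice were females on a mixed C57BL/6 and 129/Sv background and carried MMTV-Cre, a transgene that drives Cre in mammary epithelium. The luminal mice also carried the ROSA mT/mG reporter, which turns green where Cre has acted. The study's definition of its tumors does not name this reporter. Br mice were Brca1fl/fl, Br53 mice were Brca1fl/fl; Trp53fl/+ and 53 mice were Trp53fl/+ with intact *Brca1*, so every group including the controls carried Cre and at least 1 floxed gene. These genotypes follow the study's methods and its list of samples, while a legend in its supplement gives Trp53fl/fl for the Br53 and 53 mice, and the counts do not settle which is right. Luminal cells (L) were sorted as DAPI- CD24Hi CD29Lo mGFP+ cells from the fourth mammary glands at 3 to 4 months, from virgin mice (v) or at day 12.5 of pregnancy (p). Tumor cells (T) were sorted as DAPI- CD24+ cells from tumors of about 1 cm and were not gated on GFP. The sample labels give no age for the tumor mice, so age and tumor cannot be told apart in comparisons with luminal mice. Before both sorts, blood and endothelial cells were removed with a kit that enriches epithelial cells. Each tumor is 1 mouse. The luminal group pBrL held 2 mice, named pBrL-1 and pBrL-2 here, and the other luminal groups (vBrL, vBr53L, pBr53L, v53L, p53L) held 1 mouse each. The mouse was the replicate, and no test was made between single tumors because each has no replicate.

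Reads per cell ranged from 170209 to 3550564, and the sum over cells per mouse from 40338926 to 115827852. Levels are given as CPM, the reads of a gene summed over the cells of a mouse, divided by all reads of that mouse and multiplied by 1000000. With library size as the scale, the median gene lay 0.20 higher (log2) in the tumors than in the *Brca1*-deficient luminal mice, and 0.06 higher with TMM factors. *Brca1*, the gene targeted in Br and Br53 mice, was at 1.70 to 57.2 CPM in tumors, 2.03 to 31.8 in *Brca1*-deficient luminal mice and 5.21 to 6.99 in v53L and p53L. *Trp53*, floxed in Br53 and 53 mice, was at 67.2 and 140 CPM in Br53T1 and Br53T2, at 5.05 and 49.8 in BrT1 and BrT2, where it is not floxed, and at 92.5 to 515 in luminal mice. These whole-gene counts include exons outside the floxed parts, so they do not check either deletion. The summed level of 8 luminal markers was 635 CPM in BrT1, 4388 to 6318 in the other tumors and 7792 to 13295 in luminal mice, and the luminal genes *Cdh1* and *Krt19* had 0 reads in BrT1. That tumor stood apart in this respect. It also had the highest sum of 8 mesenchymal markers (9661 CPM, with 6544 in BrT2 and 161 and 589 in Br53T1 and Br53T2). *Fn1* alone made up 6200 CPM of the BrT2 sum and was at 4926 in BrT1. *Vim* was at 306 CPM in BrT2 and 4080 in BrT1. Chip and tumor cannot be told apart for BrT1, BrT2 or Br53T1, whose chips held no other mouse, while Br53T2 shared a chip with pBrL-2.

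As background, IGF2 is a fetal growth factor that signals through the IGF1 receptor and the insulin receptor, while IGF2R, the mannose 6-phosphate receptor, takes IGF2 up for breakdown. In normal tissue *Igf2* is read from the paternal and *H19* from the maternal copy of distal chromosome 7, and mouse *Igf2r* from the maternal copy of chromosome 17. The IGF2BP proteins bind and stabilise mRNAs, *Igf2* mRNA among them, and HMGA proteins bend DNA in chromatin. LIN28B blocks the maturation of let-7, a microRNA family that rises as tissues mature and pairs with the mRNAs of several of these genes.

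The let-7 matures are shown because most of the set held a match to this seed in the 3′ UTR. They are from RefSeq (GRCm38.p6), 5′ to 3′, with the seed (bases 2 to 8) in capitals:

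mmu-let-7a-5p: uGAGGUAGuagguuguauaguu
mmu-let-7g-5p: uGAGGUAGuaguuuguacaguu
mmu-miR-98-5p: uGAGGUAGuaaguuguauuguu
mmu-let-7j: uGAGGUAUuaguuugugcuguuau

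The first 3 belong to 10 matures with the seed GAGGUAG, and let-7j is the 1 family member in that table with another seed, GAGGUAU. The DNA letters CTACCTC pair with the seed GAGGUAG. They were searched on the transcript strand in the GENCODE vM21 annotation, in the longest 3′ UTR of each gene. Of the 8 protein-coding genes of the set, 7 held at least 1 match and *Igf2* held 0 in 3050 nt. Of all 21005 genes with a 3′ UTR, 9.02% held at least 1, a share not matched for length. *Igf2bp1*, *Hmga2* and *Lin28b* held 4 matches each. Among 3′ UTRs within 25% of the same length, 32.1%, 15.9% and 23.6% held at least 1 match. As many or more were held by 0.265%, 0.138% and 0.239%. The other matched genes, *Igf2bp2*, *Igf2bp3*, *Igf2r* and *Hmga1*, held 1 match each. To show the site in its context, 1 match of each gene is printed on its transcript strand with the paired letters in capitals (GRCm38, the assembly also called mm10):

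Igf2bp1, chr11:95961777-95961799, minus strand: ctgtgcgaagtaaaCTACCTCaa
Igf2bp2, chr16:22059472-22059494, minus strand: cacacaaataaaagCTACCTCag
Igf2bp3, chr6:49086786-49086808, minus strand: gcatttttactcaaCTACCTCag
Igf2r, chr17:12683035-12683057, minus strand: acctgctccgtgccCTACCTCat
Hmga1, chr17:27563278-27563300, plus strand: cctctgttcacaaaCTACCTCtg
Hmga2, chr10:120364223-120364245, minus strand: ccgacattcaatttCTACCTCag
Lin28b, chr10:45381021-45381043, minus strand: cccgggcgggaagtCTACCTCat

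A match describes letters only, and the microRNAs themselves were not measured in these cells. *H19* and *Igf2* also carry microRNAs within their own genes. *Mir483* has a row of its own in the count table, with 0 reads in all 4 tumors and 6 reads in pBr53L alone, and no row was matched to *Mir675*. The matures are shown, seeds in capitals, because they lie in the transcribed regions of the ligand gene and its neighbour:

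mmu-miR-675-5p, in an exon of H19: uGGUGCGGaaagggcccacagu
mmu-miR-675-3p, in an exon of H19: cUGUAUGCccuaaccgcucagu
mmu-miR-483-5p, in an intron of Igf2: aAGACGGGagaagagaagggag
mmu-miR-483-3p, in an intron of Igf2: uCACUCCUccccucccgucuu

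*Igf2* (chromosome 7, 142650766 to 142666816, minus strand) encodes the growth factor itself. The tumors BrT1, Br53T2, Br53T1 and BrT2 had, from high to low, 992, 327, 79.1 and 8.82 CPM. Among luminal mice there were 0 reads in vBrL, pBrL-1, vBr53L and v53L, where 3 reads would have been 0.0259 to 0.0744 CPM. The remaining luminal mice had 0.208 CPM (pBrL-2), 0.0993 (pBr53L) and 1.24 (p53L). All 4 tumors lay above all 7 luminal mice, and the tumors themselves were spread over a 112-fold range. The tumor mean was 352 ± 448 CPM (SD, n = 4) and the luminal mean 0.222 ± 0.458 (SD, n = 7). The 83 luminal reads came from 3 of 312 cells, of which 57 were in 1 cell of p53L, 16 in 1 cell of pBrL-2 and 10 in 1 cell of pBr53L. On the chip that Br53T2 and pBrL-2 shared, *Igf2* was thus at 327 and 0.208 CPM.

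*H19* (chromosome 7, 142575529 to 142578143, minus strand) is a noncoding RNA gene under the same imprinting control as *Igf2*. It had 322 CPM in BrT1 and 701 in Br53T2, with 0 reads in BrT2 and Br53T1. In luminal mice it had 6 reads in p53L (0.131 CPM), 1 in pBr53L (0.00993 CPM) and 0 in the other 5. The tumors fell into a pair with at least 322 CPM and a pair without a read, and *Igf2* was present in both pairs. For the tumors without reads, 3 reads would have been 0.0601 CPM in BrT2 and 0.0547 in Br53T1. Per kilobase of exon, which allows levels of different genes to be compared, BrT1 had 173 CPM per kb of *Igf2* and 131 of *H19*, and Br53T2 had 57.1 of *Igf2* and 285 of *H19*. The order of these neighbours was thus opposite in BrT1 and Br53T2.

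*Igf2r* (chromosome 17, 12682406 to 12769664, minus strand), the receptor that clears IGF2, was the gene of the set with reads in most cells of every mouse. BrT2 had 518 CPM, Br53T1 229, Br53T2 159 and BrT1 114, and the luminal mice ranged from 72.4 to 174 with a median of 84.5. BrT2 and Br53T1 lay above the highest luminal mouse, by 2.98 and 1.31 times, and BrT1 and Br53T2 lay within the luminal range. The means were 255 ± 181 CPM in tumors (SD, n = 4) and 96.2 ± 35 in luminal mice (SD, n = 7). From high to low the tumors ran BrT2, Br53T1, Br53T2, BrT1, which is the reverse of their order for *Igf2*. The highest luminal value was that of v53L (174 CPM), and the other 6 luminal mice were between 72.4 and 95.9. The antisense gene *Airn* overlaps *Igf2r*, and since the use of strand in counting was not stated, their reads cannot be told apart in the overlap. *Airn* had 0.563 to 23.9 CPM in tumors.

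The 3 IGF2 mRNA-binding protein genes differed in how far tumor and luminal levels were apart. *Igf2bp1* (chromosome 11, 95957163 to 96005940) was at 12.6 CPM in BrT1, 1.82 in Br53T2, 0.364 in Br53T1 and 0.0401 in BrT2, and at 0 to 1.29 in luminal mice. BrT1 was 9.73 times the highest luminal mouse, Br53T2 was 1.41 times, and the remaining tumors lay within the luminal range. *Igf2bp2* (chromosome 16, 22059009 to 22163299) had 96.2, 2.06, 23.1 and 31.2 CPM in BrT1, BrT2, Br53T1 and Br53T2, with 0.0294 to 14.5 in luminal mice. *Igf2bp3* (chromosome 6, 49085223 to 49214957) had 20.9, 5.77, 17.0 and 12.3 CPM in the same order, with 0 to 8.78 in luminal mice. The tumor means of *Igf2bp1*, *Igf2bp2* and *Igf2bp3* were 3.7 ± 5.96, 38.1 ± 40.6 and 14 ± 6.53 CPM (SD, n = 4). The luminal means were 0.361 ± 0.458, 4.17 ± 5.12 and 3.95 ± 3.39 (SD, n = 7). For *Igf2bp2* and *Igf2bp3*, 3 tumors lay above the luminal range and BrT2 lay inside it. In Br53T1 and Br53T2 most of these reads came from a few cells. For *Igf2bp1* and *Igf2bp2* the tumors ran in the same order as for *Igf2*, with BrT1 highest and BrT2 lowest. *Igf2bp3* overlaps *Malsu1* on the other strand, and their reads cannot be told apart there.

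*Hmga2* (chromosome 10, 120361275 to 120476469), which encodes a chromatin protein of embryonic cells, was at 590 CPM in BrT1, 25.1 in Br53T1, 21.9 in BrT2 and 9.21 in Br53T2. Luminal mice had 0 to 1.52 CPM, so this gene, like *Igf2*, had all 4 tumors above all luminal mice, in BrT2 and Br53T2 through a few cells. The tumor mean was 162 ± 286 CPM (SD, n = 4) and the luminal mean 0.412 ± 0.556 (SD, n = 7). BrT1 was 388 times the highest luminal mouse and 64 times the lowest tumor. Its relative *Hmga1* (chromosome 17, 27556497 to 27563674) was at 56 CPM in BrT1, 43.5 in Br53T1, 3.23 in Br53T2 and 0.581 in BrT2, with 0.173 to 1.98 in luminal mice. Here BrT2 was inside the luminal range, and BrT1 and Br53T1 were 28.4 and 22 times the highest luminal mouse. Per kilobase of exon, BrT1 had 87.1 CPM per kb of *Hmga2* and 26.4 of *Hmga1*, while Br53T1 had 3.71 and 20.5, so that the more abundant HMGA gene differed between these tumors. Both overlap genes on the other strand, and reads cannot be told apart there. *AI413582*, which overlaps *Hmga1*, had 68.5 CPM in BrT1, 64.8 in Br53T1, 37.2 in BrT2 and 11.9 in Br53T2, with 3.49 to 31.8 in luminal mice. *9230105E05Rik*, which overlaps *Hmga2*, had at most 4.24 CPM in any mouse, and *Mir763*, on the same strand within *Hmga2*, at most 18.5.

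*Lin28b* (chromosome 10, 45376620 to 45486395), the let-7 antagonist, was close to absent. BrT1 and BrT2 had 0 reads, where 3 reads would have been 0.0331 and 0.0601 CPM. Br53T1 had 7 reads in 1 cell, Br53T2 had 4 reads in 1 cell and vBrL had 1 read. Its paralog *Lin28a* reached at most 0.0298 CPM in any mouse.

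**Figure D1:**
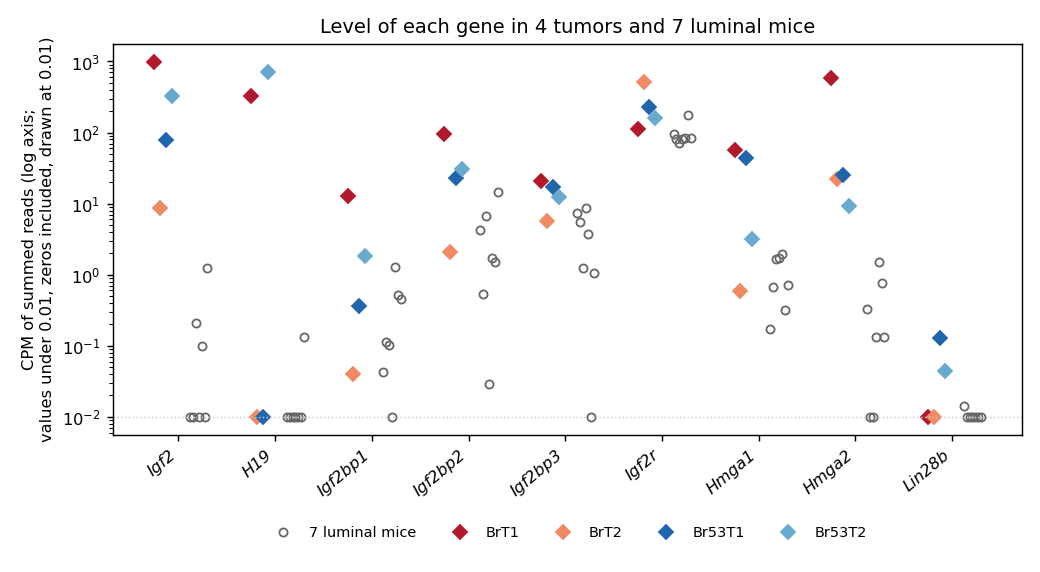
Level of each of the 9 genes in CPM of summed reads on a log axis, 1 point per mouse (diamonds, the 4 tumors; open circles, the 7 luminal mice), with values under 0.01 drawn at 0.01. *Igf2* and *Hmga2* have all 4 tumors above the luminal points, *H19* has BrT1 and Br53T2 high and the other tumors at 0, and *Igf2r* overlaps between the groups.

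Counted by tumor, the set showed different combinations. BrT1 lay above every luminal mouse for 7 of the 9 genes, all but *Igf2r* and *Lin28b*. Br53T2 did so for 8 (all but *Igf2r*), Br53T1 for 7 (all but *H19* and *Igf2bp1*) and BrT2 for 3 (*Igf2*, *Hmga2* and *Igf2r*). Over the 19603 genes with a read, the same was true of 24.2% in BrT1, 21.9% in Br53T2, 20.5% in Br53T1 and 17.1% in BrT2. All 4 tumors lay above all 7 luminal mice for 2 of the 9 genes, *Igf2* and *Hmga2*, and for 2.64% of the genes with a read. The genes were chosen on this contrast, so nothing is read from these counts, and the *Lin28b* entries of Br53T1 and Br53T2 rest on the few reads given above.

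The share of cells with a read was then taken after thinning each cell to 100000 reads, with exact 95% binomial intervals that cover counting error only. *Igf2* was found in 100% of the 47 BrT1 cells (92.5% to 100%), 60% of the 30 Br53T1 cells (40.6% to 77.3%), 45.1% of the 51 Br53T2 cells (31.1% to 59.7%) and 5.41% of the 37 BrT2 cells (0.661% to 18.2%). In luminal mice the share was 0% to 2.78%, with upper bounds of 5.06% to 14.5%. The BrT2 share thus could not be separated from the luminal shares at this number of cells, although its CPM over the whole mouse was higher. *Hmga2* had a read in 100% of BrT1, 46.7% of Br53T1, 5.88% of Br53T2 and 5.41% of BrT2 cells, and in 0% to 5.13% of luminal cells per mouse. *H19* had one in 76.6% of BrT1 cells (62% to 87.7%) and 51.0% of Br53T2 cells (36.6% to 65.2%), and in 0 of 37 and 0 of 30 cells in BrT2 and Br53T1, with upper bounds of 9.49% and 11.6%.

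For the RNA-binding protein genes, *Igf2bp2* was found in 91.5% of BrT1 cells, 27.5% of Br53T2, 20.0% of Br53T1 and 5.41% of BrT2 cells, with 0% to 13.9% in luminal mice. *Igf2bp1* was found in 38.3% of BrT1 cells and at most 5.88% elsewhere. *Igf2bp3*, in contrast, had its highest share at 31.9% in BrT1 and was present in every tumor (9.80% to 31.9%) and in 6 of the 7 luminal mice (2.63% to 11.3%). *Hmga1* had a read in 68.1% of BrT1, 63.3% of Br53T1, 15.7% of Br53T2 and 5.41% of BrT2 cells, with 0% to 11.3% in luminal mice. *Igf2r* had a read in 85.1% to 100% of tumor cells and 68.6% to 87.3% of luminal cells.

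**Figure D2:**
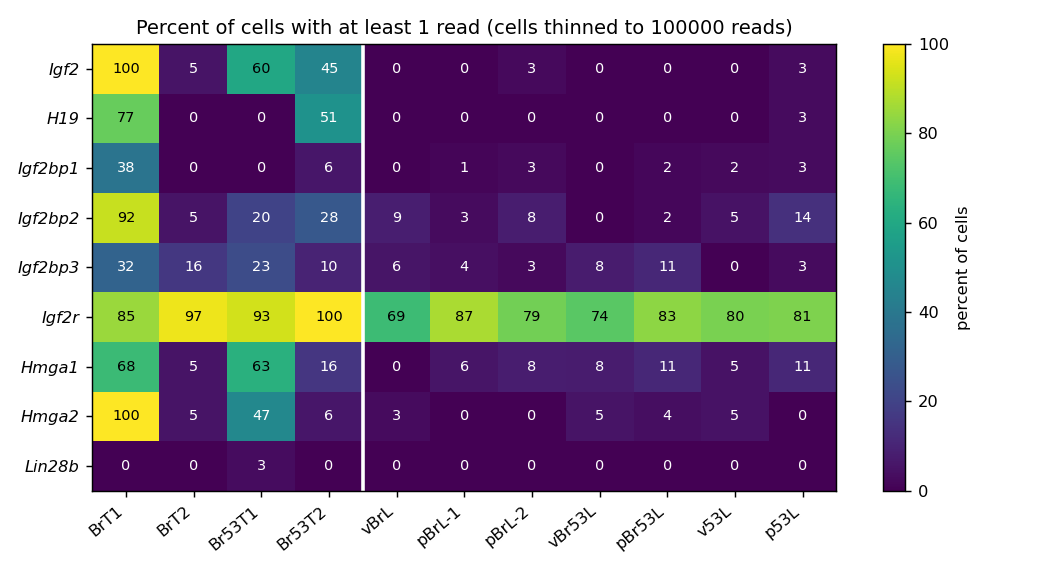
Percent of cells with at least 1 read of each gene after thinning every cell to 100000 reads, by mouse (4 tumors left of the white line, 7 luminal mice right of it). BrT1 is high for most genes, *Igf2r* is high in every mouse, and BrT2 lies above every luminal mouse for *Igf2r* (97.3%), *Igf2bp3* (16.2%) and *Igf2* (5.41%, from 2 cells), while its 2 cells with *Hmga2* equal the number in vBr53L.

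Within tumors the level per cell was uneven in different ways. In BrT1 every cell carried *Igf2*, with a median of 764 CPM per cell and an upper quartile of 1080. In Br53T2 the median was 1.82 CPM per cell and the highest cell had 4840. The 5 cells with most *Igf2* reads held 80.7% of that tumor's *Igf2* reads, and without them its level was 71.2 CPM in place of 327. In Br53T1 the top 5 cells held 68.7% of the reads and the level without them was 30.1 CPM. In BrT2 all 440 *Igf2* reads came from 2 cells and all *Hmga2* reads from 2 cells, and no cell had both. Without its top 5 cells BrT2 had no read of either gene, so its place above the luminal mice rests on these few cells. The same holds for *Hmga2* in Br53T2, where the top 5 cells held 97.3% of the reads and the level without them was 0.285 CPM, under the highest luminal mouse (1.52). In Br53T1 *Hmga2* was at 8.58 CPM without them. *Hmga1* in Br53T2 had 67.6% of its reads in its top 5 cells and 1.15 CPM without them. The highest luminal mouse for *Hmga1*, pBr53L, had 1.98 CPM with all cells and 0.908 without its own top 5.

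In tumors other than BrT1, the top 5 cells held at least 80.7% of the reads of each IGF2 mRNA-binding protein gene. In Br53T1 and Br53T2 the top 5 cells held 96.4% and 80.7% of the *Igf2bp2* reads, and without them the levels were 1.02 and 6.67 CPM, under the luminal maximum of 14.5. For *Igf2bp3* they held 95.6% and 99.3%, and the levels without them were 0.924 and 0.0953 CPM, under the luminal maximum of 8.78. In Br53T2 all *Igf2bp1* reads came from 5 cells. In BrT1 the levels without the top 5 cells were 67.4 CPM for *Igf2bp2*, 9.71 for *Igf2bp3* and 5.29 for *Igf2bp1*, still above every luminal mouse. Luminal reads were as concentrated, and without its own top 5 cells no luminal mouse exceeded 0.0349 CPM of *Igf2bp2*, 0.12 of *Igf2bp3* or 0 of *Hmga2*.

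*H19* was concentrated in the same way. In Br53T2 the median was 3.74 CPM per cell and the highest cell had 10708, and the top 5 cells held 77.4% of the reads and the level without them was 179 CPM. In BrT1 the median was 125 CPM per cell with quartiles of 13.1 and 415. *Hmga2* in BrT1 had a median of 588 CPM per cell with quartiles of 308 and 780, and its top 5 cells held 22.2% of the reads. *Igf2r* had a median of 400 CPM per cell in BrT2, 207 in Br53T1, 93.3 in BrT1 and 92.8 in Br53T2, with luminal medians of 43.2 to 82.3.

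**Figure D3:**
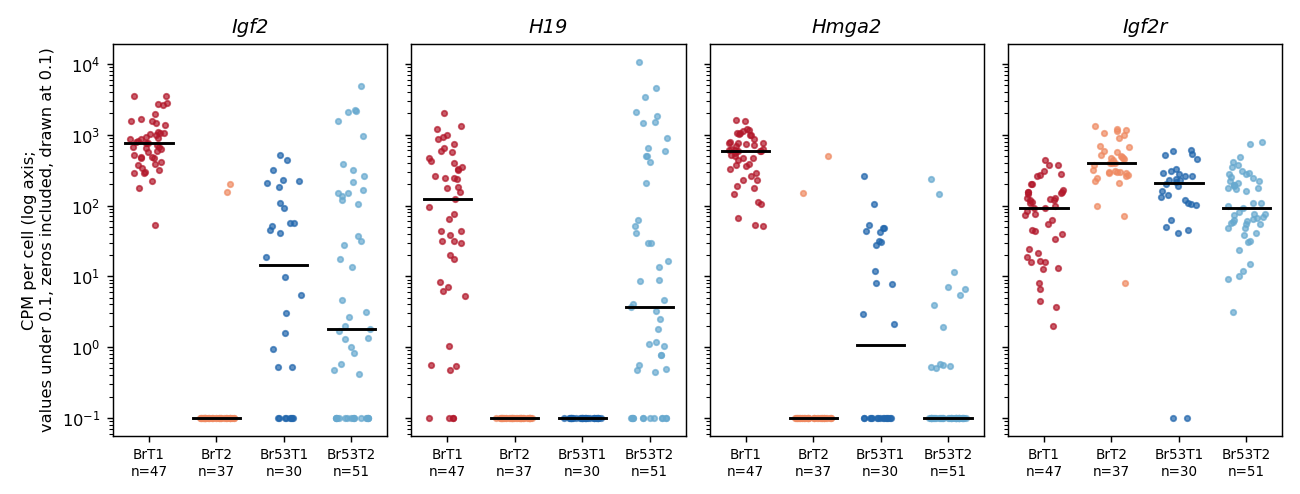
CPM per cell of *Igf2*, *H19*, *Hmga2* and *Igf2r* in the tumor cells on a log axis, 1 point per cell, black lines the medians, values under 0.1 drawn at 0.1. *Igf2* and *Hmga2* fill all BrT1 cells, Br53T2 cells run from 0 to 4840 CPM for *Igf2* and to 10708 for *H19*, and BrT2 cells are at 0 for *Igf2* except for 2.

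How the genes met in the same cell was read from the thinned counts. The genes were chosen on tumor against luminal levels, so nothing is read from a contrast of these counts between tumor and luminal cells. The same count for sets of other genes was not made. Before thinning, the median number of genes with a read per cell was 5365 to 6575 in tumors and 3672 to 5723 in luminal mice. BrT1 cells carried a median of 6 of the 9 genes (3 to 8), Br53T1 cells 3, Br53T2 cells 2 and BrT2 cells 1, and luminal cells had a median of 1 in each mouse. At least 4 of the 9 were found in 45 of 47 BrT1 cells, 12 of 30 Br53T1, 11 of 51 Br53T2 and 0 of 37 BrT2 cells, and in 0 of 312 luminal cells. As a floor, 3 cells would have been 0.962% of all luminal cells and 4.23% to 8.57% of those of a single luminal mouse. This floor is not an upper limit. The exact binomial interval used above reaches 5.06% for 0 of 71 cells (pBrL-1) and 10.0% for 0 of 35 cells (vBrL). In BrT1, 36 cells had both *Igf2* and *H19*, 11 had *Igf2* alone and 0 had *H19* alone. In Br53T2, 12 cells had both, 11 had *Igf2* alone, 14 had *H19* alone and 14 had neither. *Igf2*, *H19* and *Hmga2* occurred together in 36 BrT1 cells and 1 Br53T2 cell. Across the cells of Br53T2 the Spearman correlation of *Igf2* and *H19* was 0.49 (n = 51), and across BrT1 cells it was 0.26 (n = 47). The cells of each correlation share 1 tumor and chip, so the values are a description. With reads per cell the correlation was -0.03 for *Igf2* and 0.14 for *H19* in Br53T2, and -0.09 and 0.20 in BrT1. With genes detected per cell it was 0.29 and 0.19 in Br53T2, and -0.28 and 0.15 in BrT1. Across BrT1 cells the correlation of *Igf2* was -0.37 with the proliferation genes, -0.34 with the luminal, -0.12 with the fibroblast and 0.17 with the mesenchymal markers. With the basal markers it was -0.47, but these summed to 24.7 CPM in BrT1, of which *Krt14* made up 23.8.

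Markers of other cell types were set beside these levels, since tumor cells were gated on DAPI and CD24 and not on CD29 or GFP. Of 10 fibroblast markers, 6 were above every luminal mouse in BrT1, and their sum was 5038 CPM there, 3.55 to 104 in the other tumors and 0.143 to 712 in luminal mice. Most of it was *Dcn* (4356 CPM in BrT1), which also reached 711 CPM in a luminal mouse. The others above every luminal mouse were *Col1a2*, *Pdgfra* (105 CPM), *Pdgfrb* (83), *Col1a1* (20.4) and *Col3a1* (7.55), for which no luminal mouse exceeded 0.873 CPM. *Lum*, *Dpt*, *Pi16* and *Thy1* had 0 reads in BrT1. In Br53T2, 8 basal markers summed to 5577 CPM, against 24.7 to 282 in the other tumors and 0 to 509 in luminal mice. Whether these marker levels have a part in the levels of the growth genes was not tested. Proliferation genes summed to 4391 CPM in BrT1, 660 in BrT2, 797 in Br53T1, 1775 in Br53T2 and 84.3 to 2255 in luminal mice, and of the 22 genes 0 were called between tumors and *Brca1*-deficient luminal mice by edgeR, DESeq2 or limma (0 at an unadjusted p under 0.05). The proliferation genes with the highest tumor means were *Top2a*, *Cdk1*, *Mcm6* and *Mki67*, and *Top2a* had 29.4 to 1109 CPM in tumors and 0 to 256 in luminal mice.

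The remaining genes of the IGF pathway were tested between the 4 tumors and the 5 *Brca1*-deficient luminal mice, virgin and pregnant together with no covariate. The test was edgeR's quasi-likelihood test with p-values adjusted over all genes. Of the 9 growth genes, 7 passed its filter on low counts and *H19* and *Lin28b* did not, and their results are not used. In this comparison 0.393% of the 12978 genes tested were called higher and 0.216% lower in tumors (51 and 28 genes, or 94 and 30 with library size alone as the scale). Of 24 pathway genes with a row of counts, 18 could be tested, 1 was called higher and 0 lower, with a median log2 difference of 0.82 against 0.06 for all genes tested. DESeq2 called 3 (*Igfbp3*, *Igfbp7* and *Stc1*), where it called 6.23% of all genes, and limma called 3 (*Igfbp3*, *Igfbp4* and *Stc1*), where it called 2.71%. The called gene was *Igfbp4*, a binding protein that holds IGFs in the extracellular space. BrT1 had 996 CPM, Br53T2 49.2, BrT2 32.1 and Br53T1 17.3, against at most 0.24 in any luminal mouse. The groups did not overlap, and the log2 difference was 11.40 ± 1.56 (SE, edgeR adjusted p = 0.0158). The call was lost without pBrL-1 or pBr53L and in DESeq2, and adjusted p-values over 15 alternatives ran from 0.00229 to 0.0530.

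The other pathway genes with the highest tumor means were *Igfbp5*, *Irs2* and *M6pr*. *Igfbp5*, a binding protein abundant in mammary epithelium, had 3.12 CPM in BrT1 and 356 to 875 in the other tumors, with 577 to 1512 in luminal mice. The adaptor gene *Irs2* had 92.8 to 237 CPM in tumors and 67.5 to 363 in luminal mice, and *M6pr*, the second mannose 6-phosphate receptor gene, had 103 to 239 and 176 to 320. Other members are named after their values were seen. *Igfbp3*, which encodes another binding protein, had 42.6, 13.7, 9.84 and 93 CPM in BrT1, BrT2, Br53T1 and Br53T2 and at most 1.56 in luminal mice (log2 difference 6.84 ± 2.00, edgeR adjusted p = 0.157). *Stc1*, an inhibitor of the proteases that cut IGF binding proteins, had 0 to 1.61 CPM in tumors and 16.6 to 78.3 in luminal mice (-5.73 ± 1.17, edgeR adjusted p = 0.0539). Neither passed edgeR's test, both were called by DESeq2 and limma, and the groups did not overlap for either. The signalling receptor genes overlapped between groups, with 46.4 to 170 CPM of *Igf1r* in tumors and 11 to 136 in luminal mice, and 31.1 to 124 and 1.75 to 89.4 of *Insr*. The other ligand gene, *Igf1*, had 6.10 CPM in BrT1, 21.7 in Br53T1 and under 0.1 in BrT2 and Br53T2.

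**Figure D4:**
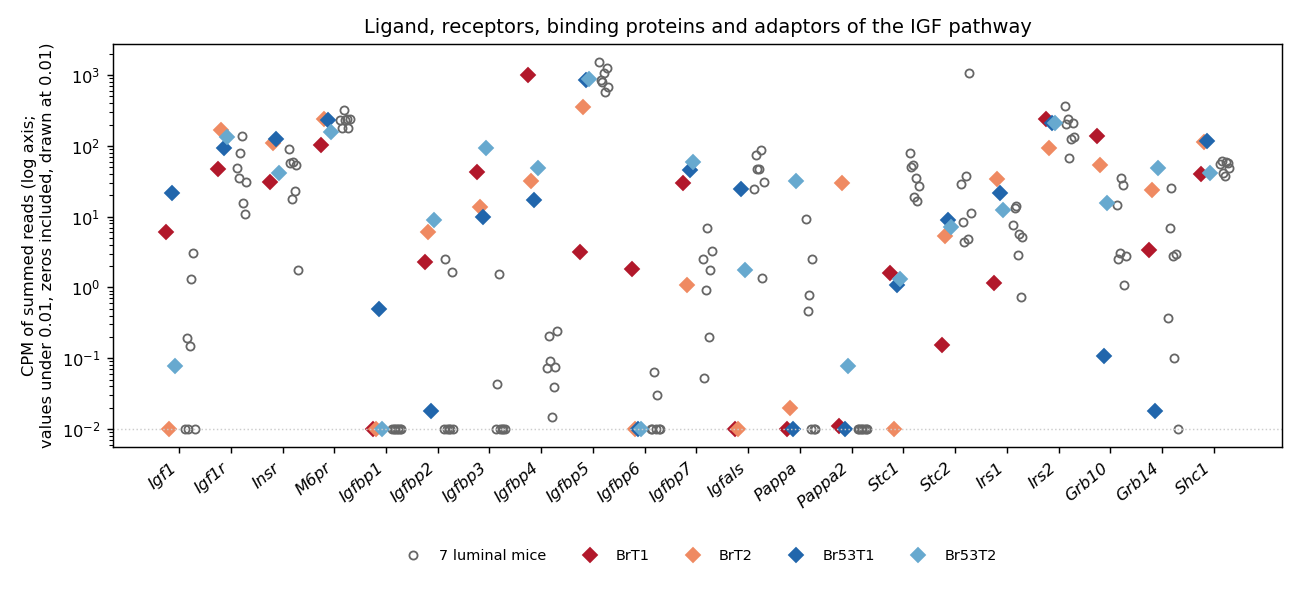
Levels of 21 IGF pathway genes with a read, in CPM of summed reads on a log axis, 1 point per mouse (diamonds, the 4 tumors; open circles, the 7 luminal mice), with values under 0.01 drawn at 0.01. *Igfbp3* and *Igfbp4* have all tumors above the luminal mice, *Stc1* has all tumors below them, and *Igfbp5* has BrT1 (3.12) and BrT2 (356) below them.

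Downstream of the receptors, 19 genes of PI3K, mTOR and MAPK signalling were all tested, 0 were called higher and 1 lower, with a median log2 difference of -0.02. The gene was *Pik3r1*, the regulatory subunit of PI3K, with 76.3, 87.3, 33.9 and 136 CPM in BrT1, BrT2, Br53T1 and Br53T2 against 295 to 475 in the *Brca1*-deficient luminal mice (-2.30 ± 0.40, edgeR adjusted p = 0.0367). The call held in 8 of 15 alternatives, was lost on leaving out BrT1, BrT2 or any of the 5 luminal mice, and adjusted p-values ran from 7.31e-06 to 0.0876. Limma called this gene alone, and DESeq2 called it and *Foxo3*, a transcription factor gene held back by AKT. *Foxo3* had 131 to 183 CPM in tumors and 261 to 374 in the *Brca1*-deficient luminal mice (-1.06 ± 0.25, edgeR adjusted p = 0.0803, DESeq2 adjusted p = 0.00251). *Braf*, also among the downstream genes with the highest tumor means, was called by none of the 3 tools.

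To ask whether other imprinted genes moved with *Igf2*, 29 of them were examined. Of the 20 that could be tested 0 were called by edgeR or limma and 3 by DESeq2 (6.23% of all genes), with 4 at an unadjusted p under 0.05 in edgeR (13.8% of all genes), and the median log2 difference was 1.24. The imprinted genes with the highest tumor means were *Dcn*, *Impact*, *Kcnq1ot1* and *Peg3*. *Dcn*, a matrix proteoglycan, was described above, and *Peg3* had 253 CPM in BrT2 and 33.5 to 91.2 in the other tumors, with 9.98 to 105 in luminal mice. *Mest* and *Sgce*, chosen after their values were seen, had 103 and 230 CPM in BrT1 and at most 39 in any other tumor, while *Dlk1* and *Meg3*, the imprinted pair most like *Igf2* and *H19* in layout, reached at most 0.492 CPM in any mouse.

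The genes flanking *Igf2* on chromosome 7 were then read one by one. Of 24 neighbours with a row of counts, 18 could be tested and 0 were called by edgeR or limma, 1 (*Ctsd*) by DESeq2 and 3 at an unadjusted p under 0.05, with a median log2 difference of 1.06. The neighbours with the highest tumor means were *Cd81*, *Ctsd*, *Kcnq1ot1* and *Nap1l4*. *Ctsd*, a lysosomal protease gene, was at 1495 CPM in BrT1, 665 in Br53T1, 612 in Br53T2 and 264 in BrT2, and at 148 to 317 in luminal mice. *Mrpl23*, the protein-coding gene of this list nearest to *H19*, had 0.641 to 0.966 CPM in tumors and 0.43 to 1.19 in luminal mice, and lay within the luminal range in BrT1 and Br53T2, where *H19* was at 322 and 701 CPM. On the same side of *Igf2*, some other neighbours were above every luminal mouse in both of these tumors, and *Syt8* and *Tnni2* also in Br53T1, which had no *H19* read (5.25 and 0.328 CPM). *Syt8* had 12.6 CPM in BrT1 and 15 in Br53T2 (luminal maximum 3.22), *Tnnt3* 0.298 and 22.3 (0.0655), and *Tnni2* 0.42 and 6.17 (0 in all luminal mice). *Lsp1* was above them in BrT1 alone (33.3 against 17.0). Genes on the other side of *Igf2* are named after their values were seen. *Tnfrsf22* was above every luminal mouse in all 4 tumors (0.781 to 5.76 CPM, luminal maximum 0.449). *Tnfrsf23* was above them in BrT1, Br53T1 and Br53T2 (33.3, 21.3 and 107 against 12.2), and *Osbpl5* in Br53T1 and Br53T2 (18.7 and 90.7 against 10.0). On that side *Cars*, *Dhcr7* and *Nadsyn1* were above them in no tumor. The differences from the luminal mean of *Igf2* were 9.73, 3.07, 6.10 and 8.13 (log2) in BrT1, BrT2, Br53T1 and Br53T2, and those of *H19* 8.31, -0.03, -0.03 and 9.43.

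**Figure D5:**
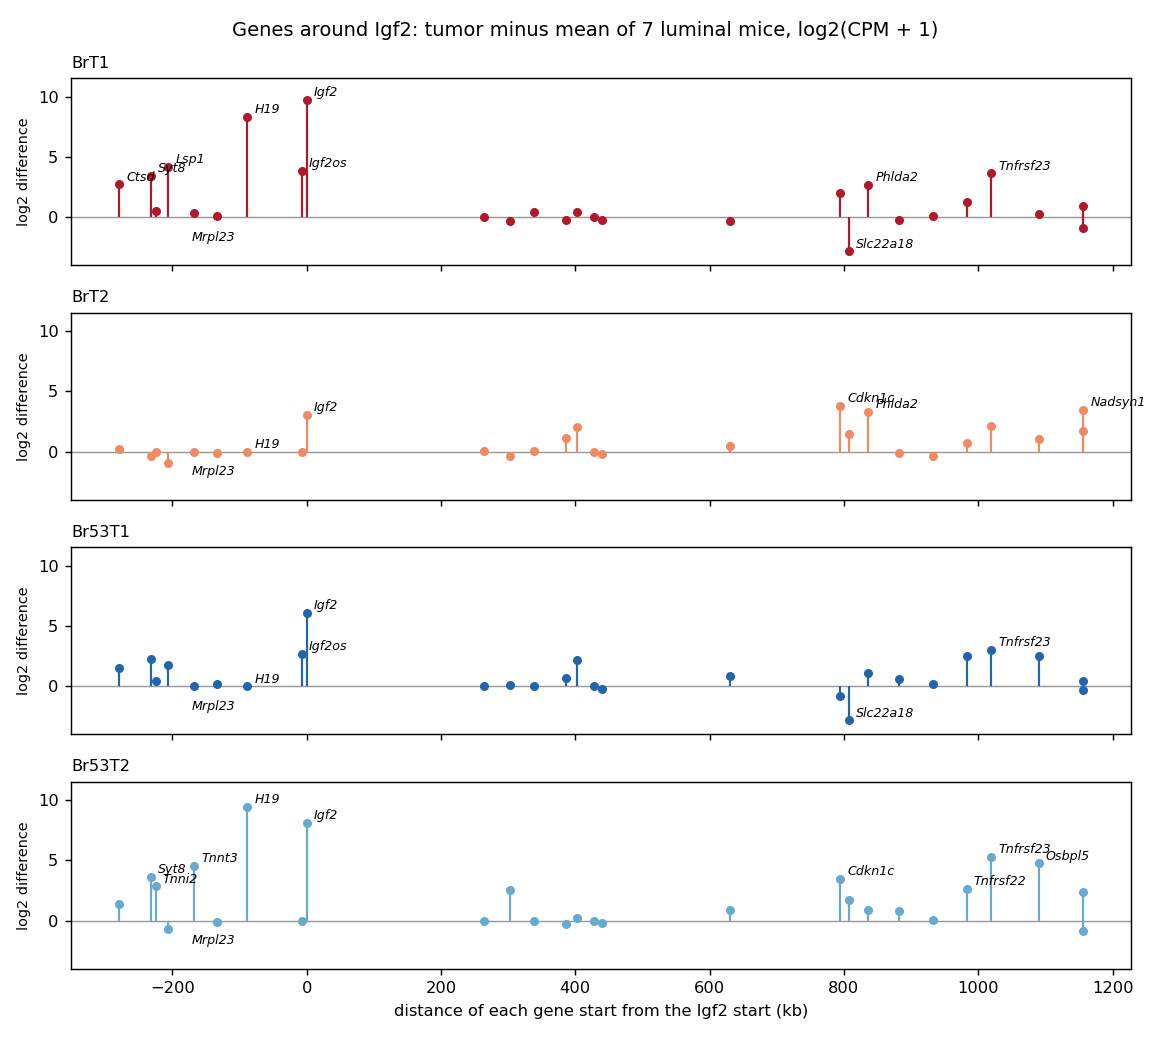
Difference of each tumor from the mean of the 7 luminal mice in log2(CPM + 1), for *Igf2*, *H19*, *Igf2os* and their neighbours, against the distance of each gene's start from the *Igf2* start in kb, 1 panel per tumor. *Igf2* and *H19* are the highest points in BrT1 and Br53T2, *Igf2* alone of the pair is high in Br53T1, and in BrT2 *Cdkn1c* (3.82), *Nadsyn1* (3.48) and *Phlda2* (3.29) exceed *Igf2* (3.07).

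Since most of the set held a match to the let-7 seed, 18 genes of its pathway were tested as well, of which 16 could be fitted. By edgeR, DESeq2 and limma 0 were called, with 2 at an unadjusted p under 0.05, both lower in tumors, and the median log2 difference was -0.11. Among its genes with the highest tumor means were *Nras*, *Myc* and *Ccnd1*, growth genes that let-7 is known to repress. *Nras* had 741 to 1321 CPM in tumors and 737 to 1402 in luminal mice, and *Myc* 96.1 to 332 and 135 to 299. *Trim71*, a let-7 target of stem cells named here after its value was seen, had 48.6 CPM in Br53T1 and at most 1.44 in the other tumors and 2.69 in luminal mice.

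Of 13 other oncofetal genes 7 could be tested and 0 were called by edgeR, DESeq2 or limma, with 1 at an unadjusted p under 0.05 and a median log2 difference of 2.27. The genes with the highest tumor means were *Ptn*, *Gpc3*, *Cldn6* and *Tpbg*. *Gpc3*, a glypican of fetal liver, had 320 CPM in BrT2, 17.4 in Br53T2 and at most 2.62 in the other tumors, with at most 2.30 in luminal mice. *Cldn6*, a claudin of embryonic epithelium, had 164 CPM in Br53T2, at most 0.64 in the other tumors and at most 24.7 in luminal mice. *Ptn*, a growth factor of development, overlapped between the groups, with 26.3 to 206 CPM in tumors and 5.09 to 5847 in luminal mice. *Afp* reached at most 6.30 CPM, and *Sall4* at most 0.00993.

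Genes with the most similar pattern over the 11 mice were listed by Pearson correlation of log2(CPM + 1) among the 8729 genes whose mean reached 10 CPM, leaving out unnamed gene models. For *Igf2* these were *Inhba* (r = 0.980), *Osr1* (0.972), *Col18a1* (0.971), *Rbfox2* (0.957) and *Igfbp4* (0.949). *Inhba*, which encodes an activin subunit, had 321, 4.89, 12.9 and 90.2 CPM in BrT1, BrT2, Br53T1 and Br53T2, in the same order of tumors as *Igf2*, and it kept the highest correlation without BrT1 (0.969). For *H19* they included *Mmp3* (0.998), *Tgfb1i1* (0.973), *Prrx1* (0.956) and *Tgfbi* (0.919). *Mmp3*, a matrix protease gene, had 116 CPM in BrT1, 128 in Br53T2 and 0 reads in the other tumors. For *Hmga2* they were *Edil3* (0.969), *Igfbp4* (0.966), *Cnr1* (0.965), *Kirrel* (0.964) and *Lrrc8c* (0.962). The highest luminal mouse was at 32.7 CPM for *Rbfox2* and at most 2.80 for the other genes named here, so the correlations mainly set the 4 tumors against low luminal levels, and by ranks they were between 0.393 and 0.971.

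Pregnancy was tested in the 7 luminal mice with genotype as a covariate. The levels of these mice were known when the 9 genes were chosen, so for them this test is not independent of the choice. Of the 12615 genes tested, 0.0159% were called in either direction (2 genes by edgeR, with 1229 at an unadjusted p under 0.05). DESeq2 called 7.67% and limma 0.317%. Of the 9 growth genes 6 had enough reads and 0 were called. *Igf2r* had 95.9, 80.1 and 174 CPM in the virgin mice vBrL, vBr53L and v53L, and 81.5, 72.4, 85.1 and 84.5 in the pregnant mice pBrL-1, pBrL-2, pBr53L and p53L. The stages overlapped, and the log2 difference of pregnant minus virgin was -0.37 ± 0.33 (SE, edgeR adjusted p = 0.774). *Igf2bp2* ranged over 0.0294 to 4.20 CPM in the virgin and 0.535 to 14.5 in the pregnant mice (2.22 ± 1.99, edgeR adjusted p = 0.772), and *Hmga1* had 0.173 to 1.69 and 0.673 to 1.98 (1.48 ± 1.85, edgeR adjusted p = 0.844). *Hmga2* (-3.47 ± 3.07), *Igf2bp1* (2.04 ± 2.53) and *Igf2bp3* (0.02 ± 1.82) had edgeR adjusted p-values of 0.771, 0.841 and 0.998. With standard errors of this size a change of several fold in the genes of few reads was not detectable. *Igf2*, *H19* and *Lin28b* had too few luminal reads to be tested. Of the lists above, edgeR called 0 genes in pregnancy in the IGF pathway (4 of 15 at an unadjusted p under 0.05), the let-7 pathway (2 of 15), imprinted genes (2 of 19), the neighbours of *Igf2* (2 of 15), other oncofetal genes (1 of 6), signalling genes (0 of 19) and proliferation genes (5 of 22). DESeq2 called 3, 2, 3, 3, 1, 0 and 4 genes of these lists, and limma 0, 0, 1, 0, 1, 0 and 0.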

How the data were processed

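Single cells from tumors and luminal epithelium were sequenced as SMARTer and Nextera libraries. The authors filtered reads with sickle, trimmed them (Trim Galore 0.4.1), aligned them to mm10 (STAR 2.5.3a) and counted reads per gene (Subread 1.5.3), as the methods and the submitters' processing notes state. The deposited values are raw counts without molecular identifiers. Strand use, annotation and cell filters are not given in the sources used here. All columns matched a labelled cell, and no cells held identical values. Doublets had been inspected by microscope and were not called again.

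Counts were summed per mouse. Tumors were tested against *Brca1*-deficient luminal mice, and pregnant against virgin mice with genotype as covariate, by edgeR 4.0.16 (R 4.3.3; filterByExpr, TMM, quasi-likelihood test, Benjamini-Hochberg over all genes, threshold 0.05). On simulated data with 200 genes changed 8-fold at the estimated dispersion, the step called 33.5% of them for the tumor and 45.5% for the pregnancy comparison. Most changes of that size could thus be missed at that dispersion. At a lower simulated dispersion the step called 96.5% and 91.0%. The pregnancy dispersion of the simulation was estimated without the genotype covariate that the test used. Alternatives were DESeq2 1.42.0, limma 3.58.1 on mean CPM over cells plus 1, RLE factors, library size, no filter, other covariates and arms, and leaving out each mouse. A floor of 3 reads stands for a count of 0.

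The 9 genes and all lists (IGF pathway, imprinted genes, neighbours of *Igf2*, let-7 pathway, other oncofetal genes, signalling, proliferation, and markers of immune, endothelial, red, fibroblast, mesenchymal, basal and luminal cells) were chosen with earlier results of these data known. Of each list every called gene was named and, below 4, those with the highest tumor mean up to 4. Likeness used the 5 highest correlations, without gene models named Gm or Rik. Positions and 3′ UTRs came from GENCODE vM21 (GRCm38), which matched 20919 symbols (99.6%). Some genes that these rules name are not reported here.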

Additional observations from a re-analysis of the deposited data

Results flagged for a closer look

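Levels of the 9 genes, as log2(CPM + 1), were examined in 18 groups of values (4 tumors and 7 luminal mice each), of which 4 had 1 mouse far from the rest. The limits used flag about 1 in 20 groups of normally distributed values. Most luminal mice had 0 reads of *Igf2*, *H19* and *Lin28b*, so that rate does not apply to these genes. No excess over chance is read from the 4. *Igf2r* in v53L, at 174 CPM, was separated from the next luminal mouse (95.9 CPM) by 0.680 of the luminal range. *Igf2* in p53L, at 1.24 CPM from 1 cell, had a gap of 0.766 of the range to pBrL-2 (0.208 CPM). *H19* in p53L, at 0.131 CPM from 6 reads, had a gap of 0.920. *Lin28b* in vBrL, at 0.0144 CPM from 1 read, had a gap of 1.00, because every other luminal mouse was at 0.

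The tumor effect of *Lin28b* went opposite ways in the genotypes, with both Br tumors below the Br luminal mean and both Br53 tumors above the Br53 luminal mean, and the effect in Br minus that in Br53 was -0.12 (log2). This difference was not tested and rests on 1 read in vBrL, 7 in Br53T1 and 4 in Br53T2.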

How the results depend on the processing

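The number of genes called between tumors and *Brca1*-deficient luminal mice was 79 by edgeR, 124 with library size alone, 129 without the low-count filter, 808 by DESeq2, 352 by limma and 213 against all 7 luminal mice, and 11 to 94 when any 1 mouse was left out (the lowest were 11, 19, 29, 44 and 50, on omitting pBrL-1, pBr53L, pBrL-2, BrT2 and BrT1 in turn). With library size alone 75.8% of the calls were higher in tumors, against 64.6%. For pregnancy the number was 2 by edgeR, 366 without the filter, 967 by DESeq2, 40 by limma, 17 without the covariate and 42 with chip as a block (1 residual degree of freedom), and 0 to 4 when 1 mouse was left out (0 on omitting pBr53L, vBrL or either pBrL mouse). The cause of these differences was not tested.

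For the 6 of the 9 genes that could be tested in pregnancy, 0 of the 79 values with an adjusted p were called under the alternatives, and 2 further values had none (*Igf2bp1* and *Hmga2* in DESeq2). The direction of *Igf2bp3* turned to -0.00324 with RLE factors, -0.00250 with library size, -0.40 with limma and -0.87 without the covariate, and lay between -1.15 and 2.57 when a mouse was left out. *Hmga2* turned to 0.02 without the covariate and 0.59 with chip as a block, from -3.47, and lay between -5.26 and 0.55 when a mouse was left out (0.55 without vBrL). The tumor minus luminal differences, which had no test, kept their sign under every alternative run: 5.77 to 9.36 (log2) for *Igf2*, 2.75 to 5.92 for *H19*, 3.77 to 7.04 for *Hmga2*, 1.80 to 3.53 for *Hmga1*, 1.93 to 3.59 for *Igf2bp2*, 1.53 to 2.56 for *Igf2bp3*, 0.79 to 1.52 for *Igf2r*, 0.28 to 1.84 for *Igf2bp1* and 0.02 to 0.40 for *Lin28b*. Shares of cells moved past their interval in 34 of 198 alternatives of thinning. Replicate numbers paired no mice, and chip, which held a virgin and a pregnant mouse of Br53 and of 53, gave the block above.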

Other observations

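*Igf2os*, an antisense gene that overlaps *Igf2*, had 14 CPM in BrT1, 5.56 in Br53T1, 0.0110 in Br53T2 (1 read) and 0 in BrT2. Its reads were 1.41% of the *Igf2* reads in BrT1, 7.02% in Br53T1 and 0.00337% in Br53T2. In pBrL-1 it had 33 reads where *Igf2* had 0. Since strand use in counting was not stated, overlapping reads of the pair cannot be told apart.

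Endothelial markers summed to 0.0547 to 51.1 CPM in tumors and 1.97 to 34.4 in luminal mice, immune markers to 0.160 to 51.9 and 9.12 to 272, and red cell markers to 0 to 7.61 and 0.159 to 38.5.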
